A study of Mus musculus with 19 samples.

Results

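The genes described here are 10 genes of the contractile apparatus of vascular smooth muscle: Acta2, Tagln, Myh11, Cnn1, Smtn, Des, Myl9, Tpm2, Mylk and Lmod1. They are defined by gene symbol, with no threshold on measured values, among the 39179 genes listed in each count file. All 10 passed the filter on low counts in every fit. Across the comparisons of exposed libraries with the control set taken for them, 9 of the 10 genes passed no test for a change. Smtn, which encodes smoothelin, was the exception.

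Smooth muscle cells in the walls of arteries and arterioles set the diameter of the vessel, and in the brain they share the abluminal side of the endothelium with pericytes. Contraction starts when calcium bound to calmodulin activates myosin light chain kinase (Mylk), which phosphorylates the regulatory light chain (Myl9) of smooth muscle myosin (Myh11) and lets it pull on filaments of smooth muscle actin (Acta2). Tropomyosin (Tpm2), calponin (Cnn1) and transgelin (Tagln) lie along those filaments, leiomodin (Lmod1) nucleates them, desmin (Des) forms intermediate filaments that link the contractile units, and smoothelin (Smtn) is an actin-associated protein of contractile smooth muscle. Many of these genes are known targets of serum response factor and its coactivator myocardin, which act through a DNA element called the CArG box.

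Polyadenylated RNA of cerebral microvessels was sequenced in 19 libraries from male C57BL/6 mice, bought at 7 weeks of age with no genetic change named in the labels. The groups, by title, are Room-air (room air, 4 libraries), Nic-free (e-cigarette vapour without nicotine, 4), Nic (e-cigarette vapour with nicotine, 3), air (room air, 4) and smoke (smoke, 4). The labels give neither the dose nor the length of exposure, and no label links an exposure to its control. Room-air was therefore taken by title as the control of Nic-free and Nic, and air as the control of smoke. The question addressed, judging by the groups, is whether the exposures altered gene expression in the microvessels of the brain. Nothing in the labels says that the libraries of a group came from separate mice, so the spread behind each p-value may be technical.

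The counts assigned to genes summed to 25266790 to 30185056 in a Room-air library, 15200536 to 19137859 in Nic-free, 21800157 to 28364198 in Nic, 9761373 to 13490373 in air and 7939180 to 12607538 in smoke. The libraries of air and smoke were thus the shallowest. All 12 endothelial and all 11 pericyte markers were above 0 in all 19 libraries. So were all 11 neuronal, all 8 astrocyte, all 8 oligodendrocyte and all 10 choroid plexus and ependymal markers, so the preparations also held RNA of other brain cells. In such bulk samples fewer smooth muscle cells and less RNA per cell cannot be told apart. Of 11 markers of striated muscle, whose desmin and actin would add to the counts, 5 (Actc1, Ckm, Myh6, Tnnt3 and Mb) were at 0 in some libraries. The other 6 were above 0 in all 19: in CPM, the count of a gene per 1000000 counts assigned to genes, Myh7 reached 18.3, Acta1 8.75, Tnnt2 7.93, Tnni3 7.79, Myl1 1.45 and Tnni2 1.085, and their part in the levels of Des and Acta2 was not tested.

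Levels within a library are given as CPM. To compare genes with each other, CPM was divided by the exon length of the gene in kilobases. On that scale the order of mean level over the 19 libraries was Myl9 (87.5 CPM per kb), Acta2 (56.8), Tagln (39.9), Myh11 (12.5), Tpm2 (12.3), Smtn (7.89), Mylk (6.81), Des (4.35), Lmod1 (2.29) and Cnn1 (1.10). Myh11 and Tpm2 were not ordered beyond their spread, since Myh11 was the higher in only 9 of 19 libraries. Tpm2 was above Smtn in 16 of 19 and Smtn above Mylk in 14 of 19. The other 6 pairs of neighbours kept their order in all 19 libraries. The regulatory light chain was therefore the most abundant of these messages per length, and calponin the rarest, with 22 to 86 counts per library.

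**Figure D1:**
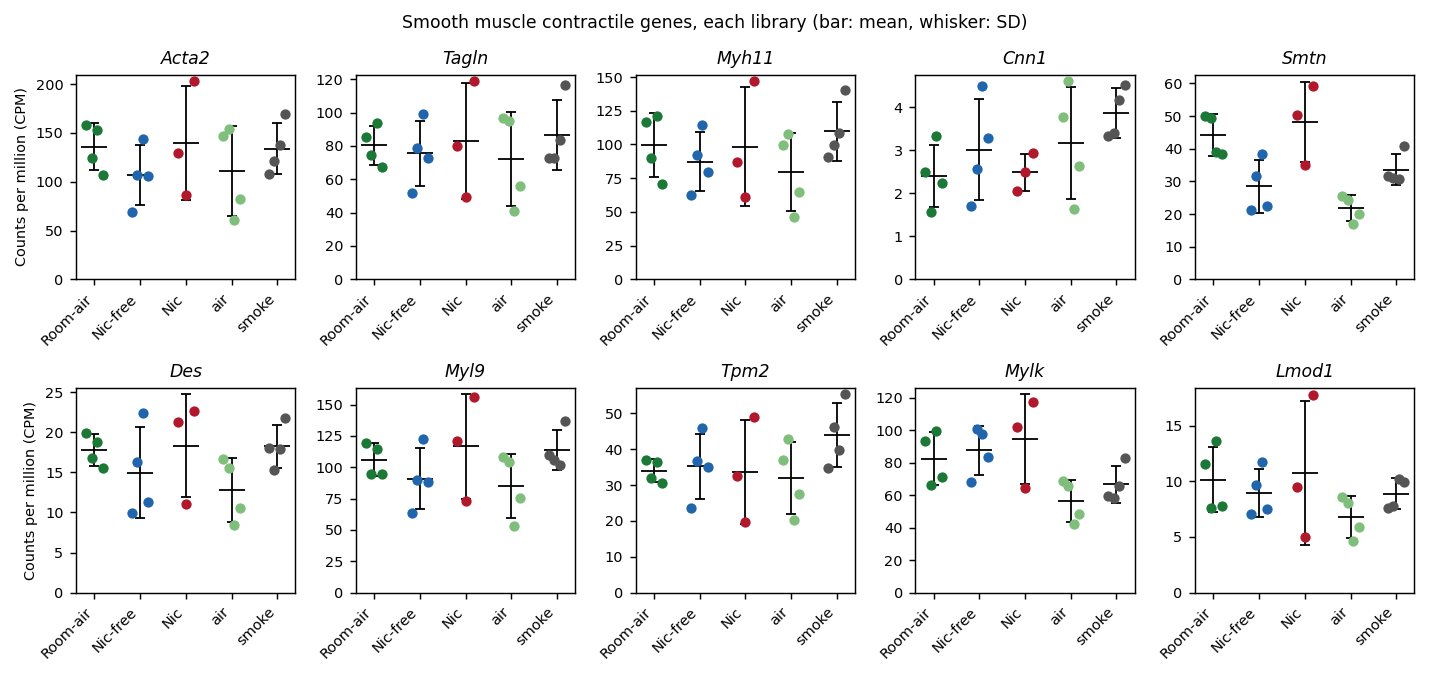
CPM of each of the 10 genes in every library (points), with the group mean (horizontal bar) and SD (whiskers), in the groups Room-air, Nic-free, Nic, air and smoke; each vertical axis starts at 0. The groups overlap for most genes, while the Smtn points of air (17.0 to 25.6 CPM) lie below those of Room-air (38.52 to 49.96) and smoke (30.8 to 40.8).

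The CArG box was looked for in the window from 250 bases before to 50 bases after the RefSeq start of each gene, in RefSeq promoter sequences of build GRCm38.p6. A window was found for 8 of the 10 genes, all but Tagln and Myh11. An exact CArG box was present in 1 of the 8, Myl9, against 1.63% of all 32851 windows. When up to 1 G or C was allowed among the 6 A or T bases of the core, 2 of the 8 (Acta2 and Myl9) held it, against 9.98% of all windows. The motif reads alike on both strands. The matches are shown because these genes are textbook targets of serum response factor. The capitals mark the motif. The RefSeq start of Acta2 lies inside the gene as GENCODE draws it, so both Acta2 matches are before the RefSeq start and after the GENCODE start.
Acta2, 84 bases before the RefSeq start, chr19:34255438-34255467, minus strand: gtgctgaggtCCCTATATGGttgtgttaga
Acta2, 34 bases before the RefSeq start, chr19:34255388-34255417, minus strand: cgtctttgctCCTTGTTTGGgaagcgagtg
Myl9, 161 bases before the RefSeq start, chr2:156775293-156775322, plus strand: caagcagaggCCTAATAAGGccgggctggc
Myl9, 99 bases before the RefSeq start, chr2:156775355-156775384, plus strand: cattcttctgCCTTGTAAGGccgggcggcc
A match describes the letters only, and the other 6 windows hold none within these 300 bases.

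Most of the contractile genes rose and fell together between libraries of the same group. The summed CPM of the 10 genes was 506 to 695 in Room-air, 379 to 701 in Nic-free, 407 to 893 in Nic, 296 to 622 in air and 535 to 778 in smoke. The highest library of a group was thus 1.37 (Room-air) to 2.19 (Nic) times the lowest, and all 5 ranges overlapped. The mean log2 level of the 10 genes had an SD of 0.38 within groups. All 10 genes were above their group mean in Room-air 1, Nic-free 3, Nic 3, air 1, air 2 and smoke 4. All 10 were below it in Room-air 4, Nic-free 1, Nic 2, air 3, air 4 and smoke 1. Smtn in Room-air was an exception to the shared pattern: it was above its group mean in Room-air 1 and 2, while the mean of the 10 was above in Room-air 1 and 3.

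**Figure D2:**
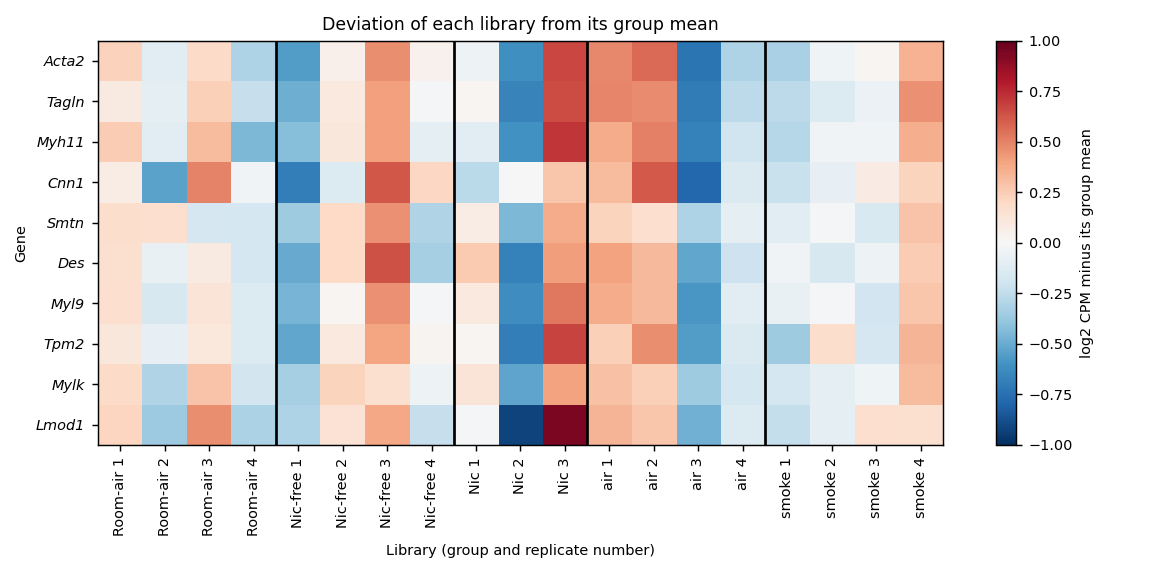
Difference between the log2 CPM of each gene (rows) in each of the 19 libraries (columns) and the mean of its group, from blue (below) to red (above); black lines part the groups. Columns are mostly of a single colour, as in Nic 2 (0 of 10 genes above the mean) and Nic 3 (10 of 10).

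After the group means were subtracted, the 45 pairs of genes had Pearson r between 0.47 and 0.98 over the 19 libraries, with a median of 0.88, and Spearman rho between 0.48 and 0.98. These values are a description: the points of a library share its preparation and its depth. Acta2 and Tagln were the closest pair (r 0.98), and Cnn1 and Smtn the least close (r 0.47). The within-group SD of log2 CPM ran from 0.30 for Smtn to 0.47 for Lmod1, against a median of 0.19 over the 16557 genes tested. By that measure Smtn stood at the 74.4th percentile of genes and Lmod1 at the 90.6th. The spread of the contractile genes between libraries of the same group was thus large, which limits the size of change that could be called.

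Against this spread, few of the 10 genes passed the test (edgeR's quasi-likelihood test with Benjamini-Hochberg adjustment over all genes tested, adjusted p under 0.05). Between Nic-free and Room-air 0 of the 10 were called, where 21.8% of all genes tested were. At an unadjusted p under 0.05 there was 1, Smtn, and DESeq2 also called Smtn. The median log2 fold change of the 10 was -0.13, against 0.00 over all genes. Between Nic and Room-air 0 of the 10 were called, against 3.89% of all genes, with 0 at an unadjusted p under 0.05, 0 by DESeq2, and a median of 0.03. Between Nic and Nic-free 1 of the 10, Smtn, was called higher, against 24.8% of all genes, with a median of 0.14.

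Between smoke and air 1 of the 10, again Smtn, was called higher, against 1.60% of all genes. The median log2 fold change was 0.43, against 0.02 over all genes, and all 10 point estimates were above 0, though the genes move together between libraries and are not 10 separate observations. In the same comparison all 12 endothelial (median 0.61), all 9 arterial and venous endothelial (0.42), all 11 pericyte (0.37), all 10 fibroblast and meningeal (0.29) and all 8 microglial markers (0.39) also had point estimates above 0, and their part in the contractile values was not tested. Between the air and Room-air controls Smtn alone was called, lower in air, against 22.7% of all genes, with a median of -0.29. The difference between the smoke effect (smoke against air) and the Nic effect (Nic against Room-air) was called for 0 of the 10, against 5.59% of all genes, with 0 at an unadjusted p under 0.05 and 0 by DESeq2. The difference between the smoke effect and the Nic-free effect was called for Smtn, against 21.5% of all genes. Over the other 9 genes, the lowest and the highest bound of the 95% intervals were 0.543 and 1.96-fold for Nic-free against Room-air, 0.600 and 1.83-fold for Nic against Room-air and 0.771 and 2.09-fold for smoke against air. A change inside a gene's own interval is not excluded.

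**Figure D3:**
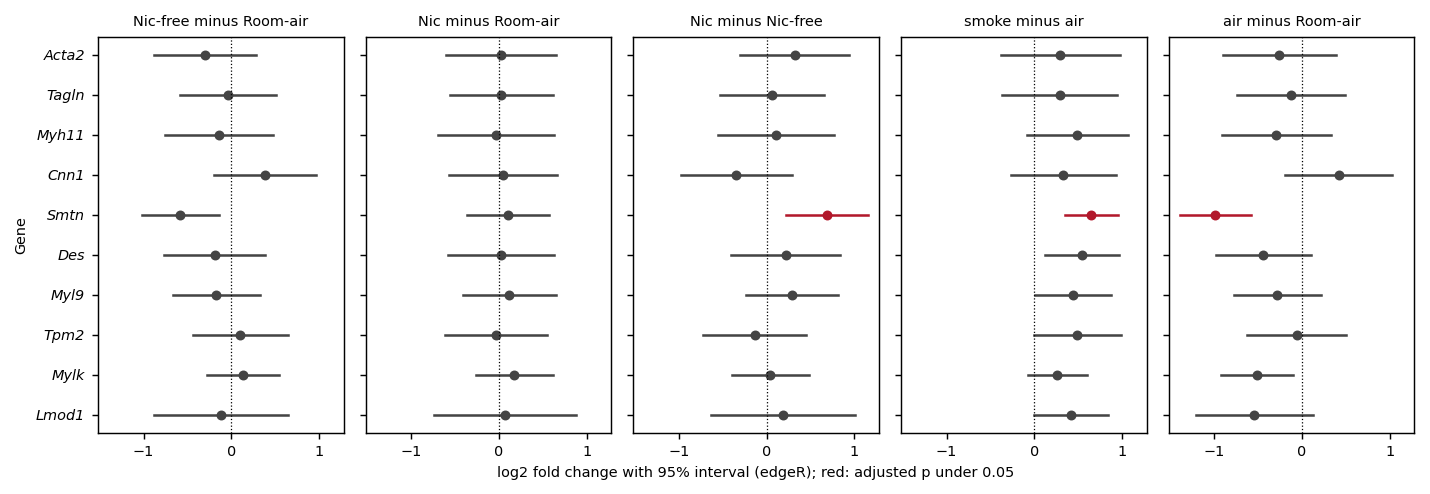
log2 fold change of each gene (point) with its 95% interval (line) in 5 comparisons, from edgeR; red marks an adjusted p under 0.05 and the dotted line no change. Only Smtn is red, in Nic minus Nic-free, smoke minus air and air minus Room-air.

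Among the genes of the thin filament, Acta2, the smooth muscle actin (chromosome 19, 34241090 to 34255590, GRCm38), was at 158, 124, 153 and 107 CPM in Room-air 1 to 4 and at 69.5, 107, 144 and 106 CPM in Nic-free 1 to 4. It was at 129, 86.9 and 203 CPM in Nic 1 to 3, 146, 154, 60.9 and 82.4 CPM in air 1 to 4, and 108, 121, 138 and 169 CPM in smoke 1 to 4. The lowest and the highest air library thus differed by 2.54-fold, and every group overlapped every other. The log2 fold change was -0.30 ± 0.26 (SE; adjusted p = 0.456) in Nic-free and 0.02 ± 0.28 (adjusted p = 0.975) in Nic, each against Room-air, and 0.30 ± 0.29 (adjusted p = 0.628) in smoke against air. Reads of other actins could be shared with Acta2, so its counts are uncertain to that extent. Among the muscle actins, Acta1 was at most at 8.75 CPM, Actg2 at 1.045 CPM and Actc1 at 0.287 CPM; the cytoplasmic actins were not examined, and shared reads were not tested.

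Tagln, or transgelin, an actin-binding protein (chromosome 9, 45929619 to 45936058), ranged from 67.5 to 93.8 CPM in Room-air, 51.9 to 98.9 in Nic-free, 49.4 to 119 in Nic, 40.8 to 96.7 in air and 72.5 to 117 in smoke. Its exons overlap those of Pcsk7 on the opposite strand and the sources used here do not say whether reads were counted by strand, so its counts are uncertain. The ratio of Tagln to Acta2 stayed between 0.540 and 0.747 in all 19 libraries. Within it, the 4 Nic-free libraries (0.686 to 0.747) were above the 4 Room-air libraries (0.540 to 0.630), a difference seen after the values were known and not tested. Neither gene passed the test in any comparison.

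Tpm2, the beta chain of tropomyosin that lies in the groove of the actin filament (chromosome 4, 43514711 to 43523765), was at 30.6 to 37.0 CPM in Room-air, 23.7 to 45.8 in Nic-free, 19.7 to 48.8 in Nic, 20.4 to 42.8 in air and 34.7 to 55.3 in smoke. In smoke its log2 fold change against air was 0.49 ± 0.22 (adjusted p = 0.266). Lmod1, leiomodin 1, which seeds new actin filaments (chromosome 1, 135324807 to 135368065), had the widest spread of the 10, with 4.97 CPM in Nic 2 and 17.7 CPM in Nic 3. Its log2 fold change was 0.42 ± 0.19 (adjusted p = 0.264) in smoke against air and 0.07 ± 0.37 (adjusted p = 0.935) in Nic against Room-air.

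Cnn1, calponin 1, which binds actin and damps the activity of myosin (chromosome 9, 22099216 to 22109630), was at 2.48, 1.58, 3.33 and 2.25 CPM in Room-air 1 to 4, 1.71, 2.57, 4.49 and 3.29 CPM in Nic-free 1 to 4, and 2.06, 2.48 and 2.93 CPM in Nic 1 to 3. In air 1 to 4 it was at 3.78, 4.61, 1.63 and 2.64 CPM and in smoke 1 to 4 at 3.34, 3.40, 4.18 and 4.52 CPM. The 4 smoke libraries were all above the 4 Room-air libraries but overlapped those of air. Cnn1 was the only one of the 10 with a positive point estimate in air against Room-air, a log2 difference of 0.42 ± 0.29 (adjusted p = 0.312).

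The motor itself, the smooth muscle myosin heavy chain Myh11 (chromosome 16, 14194535 to 14291372), was at 70.7 to 121 CPM in Room-air, 62.7 to 114 in Nic-free, 61.0 to 147 in Nic, 46.2 to 108 in air and 90.5 to 140 in smoke. Its log2 fold change was -0.14 ± 0.28 (adjusted p = 0.754) in Nic-free and -0.04 ± 0.30 (adjusted p = 0.956) in Nic, and 0.49 ± 0.25 (adjusted p = 0.334) in smoke against air. Myh11 thus gave values in each control set that overlapped those of the exposed libraries.

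Myl9, the light chain whose phosphorylation switches the motor on (chromosome 2, 156775420 to 156781658), was at 119, 94.5, 115 and 94.9 CPM in Room-air 1 to 4, 63.4, 89.7, 123 and 88.0 CPM in Nic-free 1 to 4, and 121, 73.0 and 156 CPM in Nic 1 to 3. It was at 108, 104, 53.5 and 75.2 CPM in air 1 to 4 and at 109, 106, 102 and 137 CPM in smoke 1 to 4. Of the 4 smoke libraries 2 were above all air libraries, and the other 2 were just below the highest of them. The log2 fold change in smoke against air was 0.44 ± 0.19, with an unadjusted p of 0.0459 and an adjusted p of 0.250.

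Mylk, the kinase that phosphorylates that light chain (chromosome 16, 34745210 to 35002420), was at 93.7, 66.2, 99.3 and 71.2 CPM in Room-air 1 to 4, 68.1, 101, 97.9 and 83.6 CPM in Nic-free 1 to 4, and 102, 64.2 and 118 CPM in Nic 1 to 3. It was at 69.0, 65.8, 42.4 and 48.7 CPM in air 1 to 4 and at 59.7, 58.3, 66.0 and 82.7 CPM in smoke 1 to 4. Air and smoke both lay mostly below the e-cigarette groups and their control. In air against Room-air the log2 difference was -0.51 ± 0.20 (adjusted p = 0.0652). That difference was called by DESeq2 (adjusted p = 0.0409), and by edgeR when Room-air 2 (adjusted p = 0.0478) or air 1 (adjusted p = 0.0483) was left out. Against the air set, edgeR gave Mylk a log2 fold change of 0.67 in Nic (adjusted p = 0.0217, 30.0% of all genes called). In Nic-free it was 0.64 (adjusted p = 0.0726, 4.22% of all genes called). Within its own comparison, smoke against air, the log2 fold change of Mylk was 0.26 ± 0.15 (adjusted p = 0.385). The counts of Mylk may include reads of antisense gene models that overlap it.

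Des, the intermediate filament protein desmin (chromosome 1, 75360329 to 75368579), was at 19.9, 16.8, 18.8 and 15.5 CPM in Room-air 1 to 4, 9.87, 16.3, 22.4 and 11.2 CPM in Nic-free 1 to 4, and 21.3, 11.01 and 22.7 CPM in Nic 1 to 3. It was at 16.6, 15.6, 8.38 and 10.6 CPM in air 1 to 4 and at 18.1, 15.2, 17.9 and 21.7 CPM in smoke 1 to 4. Of the 4 smoke libraries 3 were above all air libraries. The log2 fold change in smoke against air was 0.54 ± 0.19, with an unadjusted p of 0.0163 and an adjusted p of 0.157. Its smoke effect minus its Nic-free effect was 0.74 ± 0.36 (adjusted p = 0.155), and this passed the threshold only when Nic-free 3 was left out (0.99, adjusted p = 0.0450). An opposite-strand gene model, Gm15179 (12 counts over all libraries), overlaps exons of Des, so its counts carry the same uncertainty as those of Tagln.

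Smtn, smoothelin (chromosome 11, 3517523 to 3540612), was at 49.96, 49.4, 39.0 and 38.5 CPM in Room-air 1 to 4, at 21.4, 31.6, 38.5 and 22.4 CPM in Nic-free 1 to 4, and at 50.4, 34.9 and 59.3 CPM in Nic 1 to 3. In air 1 to 4 it was at 25.6, 24.4, 17.0 and 19.99 CPM, and in smoke 1 to 4 at 31.5, 31.1, 30.8 and 40.8 CPM. All smoke libraries were above all air libraries, and all air libraries were below all Room-air libraries. The Nic-free libraries reached up to 38.46 CPM, just short of the lowest Room-air library at 38.52 CPM, while Nic and Nic-free overlapped. Exons of Smtn overlap 2 gene models on the opposite strand, Gm11946 (36 counts over all libraries) and Gm11947 (0 counts), and since it is not known whether reads were counted by strand, the counts of Smtn are uncertain.

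Smtn was 1.57-fold higher in smoke than in air (log2 0.65 ± 0.14, 95% interval 1.28 to 1.93-fold, adjusted p = 0.0443). That call is narrow: the fold change kept its direction with each library left out (log2 0.54 to 0.72), but the adjusted p rose above the threshold without air 2 (0.0975), air 3 (0.127), air 4 (0.0868), smoke 1 (0.0962), smoke 2 (0.0653) or smoke 4 (0.118). The number of genes called in that comparison also fell, from 244 to 1 without smoke 1. The no-feature share, the reads assigned to no gene, was 33.55 to 37.51% in air and 28.91 to 33.25% in smoke, and its part in the difference was not tested.

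In Nic-free, Smtn had a log2 fold change of -0.58 ± 0.20 against Room-air (adjusted p = 0.0575), short of the threshold. DESeq2 called it (adjusted p = 0.0170), as did edgeR without Nic-free 3 (-0.76, adjusted p = 0.0204). In Nic its log2 fold change against Room-air was 0.10 ± 0.21 (0.778 to 1.48-fold, adjusted p = 0.817). Between the e-cigarette groups, Smtn was 1.61-fold higher in Nic than in Nic-free (log2 0.68 ± 0.22, 95% interval 1.16 to 2.22-fold, adjusted p = 0.0365). The direction held with each library left out (0.50 to 0.87), but the call was lost without Nic-free 1 (adjusted p = 0.0722), Nic-free 2 (0.0542), Nic-free 4 (0.0815), Nic 1 (0.104) or Nic 3 (0.146). The no-feature share was 38.86 to 45.16% in Nic-free, 33.01 to 38.4% in Nic and 28.66 to 33.4% in Room-air, and its part was not tested.

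The difference of Smtn between the 2 control sets was larger in size than the point estimate of any exposure against its own control. In air Smtn was at 0.503 times its Room-air level (log2 -0.99 ± 0.19, 95% interval 0.381 to 0.666, adjusted p = 0.00188), and it stayed past the threshold in all 14 alternatives (-1.05 to -0.89). The choice of control therefore decides the sign for Nic-free and smoke. Against the air set, Nic-free had a log2 fold change of 0.40 (adjusted p = 0.264, where 4.22% of all genes were called) and Nic of 1.07 (adjusted p = 0.00091, 30.0% of all genes called), and smoke against Room-air had -0.35 (adjusted p = 0.277, 6.20% of all genes called). Both sets are labelled room air, and what else differed between them cannot be told apart.

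Relative to its own control, the smoke effect on Smtn exceeded the Nic-free effect by a log2 difference of 1.24 ± 0.27 (2.36-fold, 95% interval 1.59 to 3.50, adjusted p = 0.00411). It passed the threshold in all 22 alternatives run (1.13 to 1.41). None of these exchanged the control sets, which themselves differed by -0.99 in Smtn (air against Room-air). The smoke effect minus the Nic effect was 0.56 ± 0.28 (adjusted p = 0.219) and was called in 0 of 21 alternatives. Relative to actin, the ratio of Smtn to Acta2 averaged 0.332 ± 0.062 (SD, n = 4) in Room-air, 0.271 ± 0.043 (n = 4) in Nic-free, 0.362 ± 0.060 (n = 3) in Nic, 0.214 ± 0.057 (n = 4) in air and 0.254 ± 0.029 (n = 4) in smoke. In air 1 and air 2, Acta2 was within the range of Room-air, while Smtn was above the other air libraries but below every Room-air library.

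**Figure D4:**
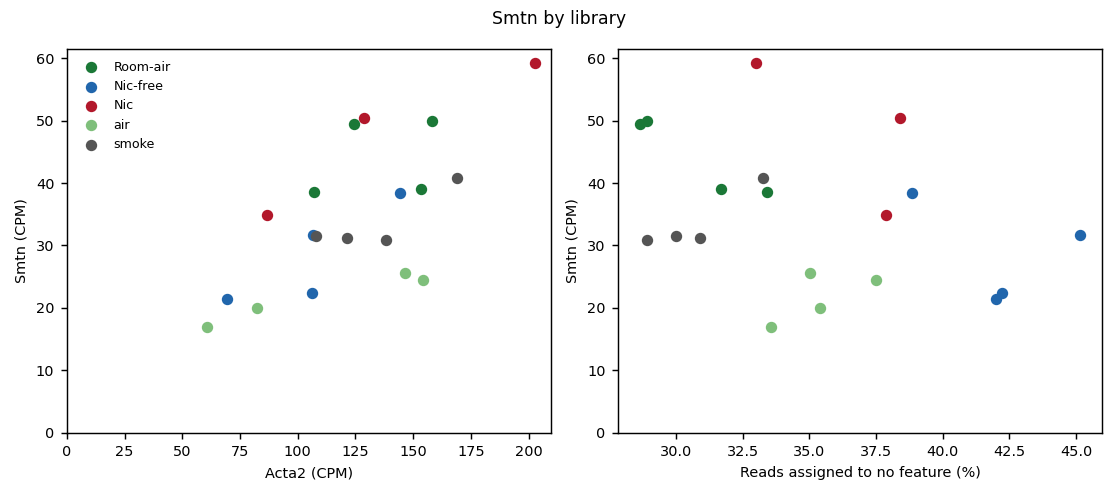
Smtn CPM in each library against Acta2 CPM (left) and against the percent of reads assigned to no feature (right), coloured by group. In air 1 and air 2, with Acta2 at 146 and 154 CPM, Smtn is at 25.6 and 24.4 CPM, below every Room-air library; the right panel shows the no-feature share highest in Nic-free.

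Genes that act with these 10 were examined in 4 lists. Among 24 other cytoskeletal genes of smooth muscle, 2 rose and 4 fell in Nic-free against Room-air (25.0% of the list, where 21.8% of all genes were called). Flna, which encodes filamin A, a crosslinker of actin, fell by 0.56 on the log2 scale (SE 0.11, adjusted p = 0.00304), and Synm, which encodes the intermediate filament protein synemin, fell by 0.55 (SE 0.15, adjusted p = 0.0213). In Nic against Room-air 2 rose and 1 fell (12.5% of the list, where 3.89% of all genes were called). Hspb6, a small heat shock protein of muscle, fell by 1.07 (SE 0.17, adjusted p = 0.0197), from 9.51 ± 1.35 to 4.57 ± 0.50 CPM (SD, n = 4 and 3), and Itga8 and Vcl, an integrin subunit and vinculin, rose by 0.56 and 0.38. Over the 7 fits with a library left out, Hspb6 kept its call in 5 and Itga8 and Vcl in 3 each; without Room-air 2 or Nic 1 no gene of the whole table was called. In smoke against air 1 of 23 tested rose, Tln1, which encodes talin (0.50 ± 0.10, adjusted p = 0.0387), and 0 fell, where 1.60% of all genes were called. Tln1 kept that call in 1 of 8 fits with a library left out. Between the controls, air against Room-air, 3 genes of this list were higher and 6 lower (37.5% of the list, where 22.7% of all genes were called). Flna, Synm, Tln1 and Vcl were among them, and kept that call in 7, 8, 8 and 8 of 8 such fits.

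Among 18 genes that control the phosphorylation of myosin, 5 rose and 2 fell in Nic-free against Room-air, where 21.8% of all genes were called. In smoke against air 1, Rgs4, fell, where 1.60% of all genes were called, and that call was kept in 0 of 8 fits with a library left out. In Nic against Room-air edgeR called 0, with 4 at an unadjusted p under 0.05 and 3 called by DESeq2; without Nic 3 edgeR called 3 (Rock1, Rock2 and Calm3). Ppp1r14a, which encodes the inhibitor of myosin phosphatase CPI-17, rose in Nic-free by 0.61 ± 0.16 (adjusted p = 0.0154), from 18.04 ± 3.13 CPM in Room-air to 26.65 ± 4.52 CPM. Prkg1, the cGMP-dependent kinase that promotes relaxation, fell there by 0.90 (SE 0.21, adjusted p = 0.00883), from 4.04 ± 1.08 to 2.09 ± 0.35 CPM. Both differed the other way in Nic against Nic-free, Ppp1r14a with -0.88 ± 0.18 and Prkg1 with 0.92 ± 0.22, and these 2 comparisons share the Nic-free libraries. Both kept their call in all 8 and all 7 fits with a library left out. In air against Room-air Ppp1r14a was higher (0.86 ± 0.17) and Prkg1 lower (-0.68 ± 0.20, called in 5 of 8 such fits), the directions seen in Nic-free against the same Room-air libraries. The cells behind these changes are not known. The median log2 fold change in Nic-free against Room-air was 0.46 for 8 oligodendrocyte, 0.53 for 11 neuronal and -0.64 for 12 endothelial markers. In Nic against Nic-free these medians were -0.64, -0.61 and 0.92, and in air against Room-air 0.50, 0.34 and -0.99. The part of these cells in the values was not tested.

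Among 14 genes of the serum response factor and myocardin axis, 1 rose and 3 fell in Nic-free against Room-air, where 21.8% of all genes were called, with Mef2c, a MADS-box factor also found in neurons and microglia, 0.77 ± 0.11 higher and the cofactor Mrtfa 0.39 lower. In Nic against Room-air edgeR called 0 of 14, with 4 at an unadjusted p under 0.05 and 2 called by DESeq2; without Nic 2 it called Klf4, and without Nic 3 Mef2a and Mef2c. In smoke against air, where 1.60% of all genes were called, 2 of 12 tested rose: Klf4, a factor known to repress contractile genes (0.97 ± 0.16, adjusted p = 0.0307), and Notch3, the Notch receptor of mural cells (0.76 ± 0.13, adjusted p = 0.0336). Klf4 was at 22.7 ± 6.1 CPM in air and 43.7 ± 4.5 CPM in smoke, Notch3 at 31.6 ± 6.5 and 52.7 ± 4.9 CPM (SD, n = 4 each). Each kept its call in 2 of 8 fits with a library left out. Both were also lower in air than in Room-air, Klf4 by a log2 difference of -1.39 ± 0.22 and Notch3 of -0.87 ± 0.19, in all 8 such fits. The cells behind the changes of Klf4 and Notch3 are not known. In smoke against air the median log2 fold change was 0.61 for 12 endothelial and 0.37 for 11 pericyte markers. In air against Room-air these medians were -0.99 and -0.60, and their part was not tested. Myocd, the coactivator myocardin, was at most at 0.88 CPM and at 0 in 3 libraries. That is too low for a level to be compared with confidence. Its edgeR call in Nic against Nic-free (1.82 ± 0.52, adjusted p = 0.0199) rests on such counts. In that comparison 6 of the 14 genes were called higher and 1 lower, where 24.8% of all genes were called. Klf4, Mef2a and Mef2c were among them, each in all 7 fits with a library left out.

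Among 24 receptors, channels and pumps of vascular tone, 2 rose and 3 fell in Nic-free against Room-air, a share near that of all genes called (21.8%). In Nic against Room-air 2 rose, where 3.89% of all genes were called, and 0 of 22 tested passed in smoke against air by edgeR, with 6 at an unadjusted p under 0.05 and 1 called by DESeq2. Pde3a, a phosphodiesterase that breaks down cyclic nucleotides, fell in Nic-free by 1.30 (SE 0.32, adjusted p = 0.0124). Its level was low, at 0.79 to 3.88 CPM over the 19 libraries. Pde3a was also called lower in air against Room-air, where 22.7% of all genes were called. That call was kept in 6 of 8 fits with a library left out. Trpc6, a cation channel that depolarises smooth muscle, rose in Nic by 0.77 ± 0.14 (adjusted p = 0.0197). Trpc6 was at 15.5 ± 2.6 CPM in Room-air (n = 4) and 26.9 ± 1.1 CPM in Nic (n = 3), without overlap. Trpc6 kept its call in 5 of 7 fits with a library left out. The smoke effect minus the Nic effect was -0.94 ± 0.23 for Trpc6 (adjusted p = 0.0282). These genes are also expressed outside smooth muscle, so the cells behind a change are not known.

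Within groups, the level of the contractile genes moved with that of other vessel cells. After the group means were subtracted, the mean log2 level of the 10 genes had r 0.95 with 9 markers of arterial and venous endothelium (rho 0.97, and r 0.93 without the 2 libraries farthest from the median) and r 0.91 with 12 general endothelial markers (rho 0.92, and 0.86). It had r 0.85 with 11 pericyte markers and 0.88 with 10 markers of fibroblasts and meninges. With the markers of neurons r was -0.10, of astrocytes 0.12 and of oligodendrocytes 0.18, each over 19 libraries that share their depth and preparation. With those of microglia it was 0.33, of choroid plexus and ependyma -0.39 and of striated muscle -0.44, the last including genes at 0 in some libraries. Without subtracting the group means, r was 0.94 with the arterial and venous, 0.73 with the general endothelial, 0.68 with the pericyte and 0.75 with the fibroblast and meningeal markers. In single libraries the order of the 2 sums could differ. The library air 2 had a contractile sum of 622 CPM and an endothelial sum of 2002 CPM, and Nic 2 had 407 and 2927 CPM. By group mean, the contractile sum was highest in Nic (645 CPM), then smoke (619), Room-air (613), Nic-free (538.5) and air (481). The endothelial sum was also highest in Nic (4444 CPM), then Room-air (3433), smoke (2693), Nic-free (2346) and air (1810).

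The lists of vessel markers differed in how far their group means lay apart. The median log2 fold change of the 12 general endothelial markers was -0.64 in Nic-free against Room-air, -0.99 in air against Room-air, 0.61 in smoke against air and 0.92 in Nic against Nic-free. That of the 9 arterial and venous markers was -0.011, -0.23, 0.42 and 0.18 in the same order, beside -0.13, -0.29, 0.43 and 0.14 for the 10 contractile genes. That of the 11 pericyte markers was -0.16, -0.60, 0.37 and 0.49.

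In Nic-free against Room-air 6 of 12 endothelial markers fell and 0 rose, with Slc2a1, the glucose transporter of the blood-brain barrier, lower by a log2 difference of -1.11 ± 0.16, while 0 of the 10 contractile genes and 21.8% of all genes were called; 1 of the 9 arterial and venous markers rose. In air against Room-air, where 22.7% of all genes were called, 8 of 12 endothelial and 7 of 11 pericyte markers were lower. So were 6 of 10 fibroblast and meningeal and 3 of 9 arterial and venous markers, beside 1 of the 10 contractile genes. The 10 choroid plexus and ependymal markers had a median of -1.355 there, with 0 called. Against the same Room-air libraries that median was -1.50 in Nic-free, with 2 called lower, and -1.77 in Nic, with 0 called. In smoke against air 3 of 12 endothelial and 0 of 9 arterial and venous markers rose, beside Smtn and 1.60% of all genes called. In Nic against Nic-free 8 of 12 endothelial and 0 of 9 arterial and venous markers rose, where 24.8% of all genes were called. With each library left out, 3 to 7 endothelial markers were lower in Nic-free and 7 to 9 in air, each against Room-air. In such fits 0 to 6 were higher in smoke against air and 5 to 12 in Nic against Nic-free. Where Smtn was called, the general endothelial markers called were thus all in its direction, and the part of the vessel content in the Smtn differences was not tested.

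The summed CPM of the 12 endothelial markers was 2808 to 3899 in Room-air, 1937 to 2924 in Nic-free, 2927 to 5220 in Nic, 1292 to 2330 in air and 2307 to 3161 in smoke. The ratio of the summed contractile genes to that sum was 0.170 to 0.186 in Room-air, 0.193 to 0.263 in Nic-free, 0.122 to 0.171 in Nic, 0.229 to 0.311 in air and 0.214 to 0.246 in smoke. The 4 Nic-free libraries were all above the 4 Room-air libraries, while the Nic libraries reached the lowest of Room-air only at their highest value. Smoke and air overlapped. These ratios were looked at with the values known and carry no test.

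**Figure D5:**
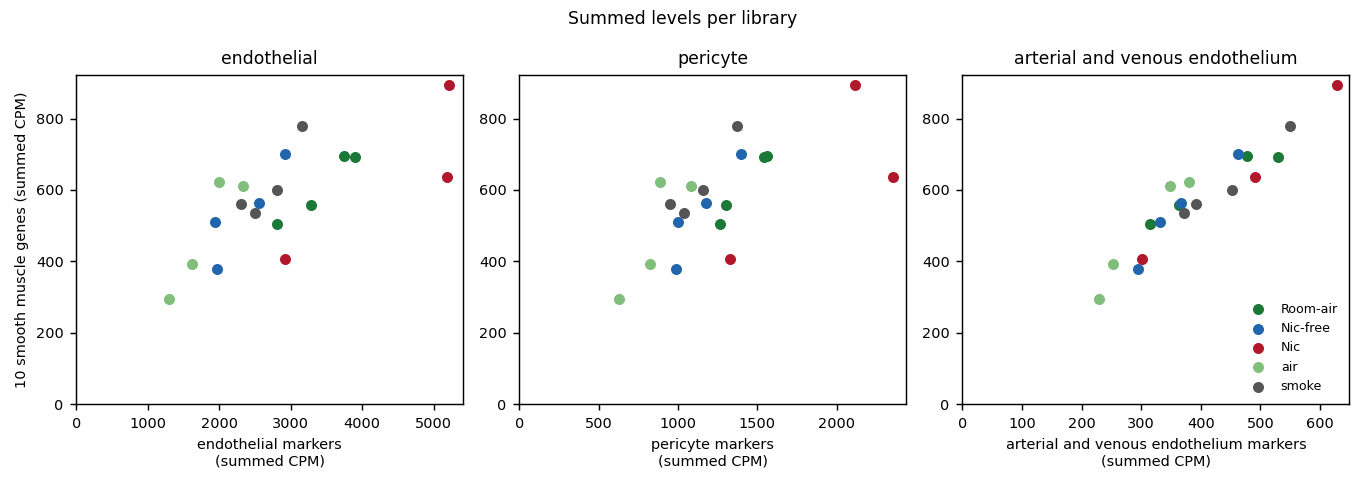
Summed CPM of the 10 contractile genes (vertical) against the summed CPM of endothelial (left), pericyte (middle) and arterial and venous endothelial markers (right), 1 point per library, coloured by group. The ratio of contractile to endothelial sums (left) is 0.229 to 0.311 in air and 0.122 to 0.171 in Nic, so the groups do not lie on a single line.

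Genes whose pattern was most like the mean log2 level of the 10 were taken from 12012 named genes with a mean of at least 5 CPM. Over the 19 libraries these were Mrvi1 (r 0.93), Mustn1 (0.93), Gja4 (0.93), Vwf (0.93), Capg (0.92), Ptgis (0.92), Rcn3 (0.92) and H2-D1 (0.91). With the group means subtracted, Mrvi1 again came first (r 0.98), followed by Cnn2 (0.95), Fn1 (0.95), Ptgis (0.95), Foxd1 (0.95), Cavin1 (0.95), Podxl (0.95) and Tie1 (0.94). Mrvi1 and Ptgis stood in both lists. Mrvi1, which encodes a partner of the inositol trisphosphate receptor, ranged from 6.97 to 25.7 CPM over the libraries.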

How the data were processed

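Per the submitters' processing notes, the authors used STAR, HTSeq and the build mm10 (versions not stated); the deposited values are raw counts of reads per Ensembl gene, from single-end, strand-specific libraries read over 80 nt, per the labels' protocols. Each file lists 39179 genes, and its 5 summary lines, which name no gene, were kept out of totals and tests; no feature took 28.66 to 45.16% of reads. Positions and exon lengths are from GENCODE M21 (GRCm38).

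Counts were tested with edgeR 4.0.16 (R 4.3.3, limma 3.58.1): TMM scaling, filterByExpr, robust quasi-likelihood fits, two-sided, Benjamini-Hochberg adjustment over all genes tested, threshold 0.05. The 3 e-cigarette comparisons came from 11 libraries, smoke against air from 8, and the control comparison and the differences between effects from all 19. CPM are unscaled; log2 CPM used for correlations have a prior count of 2 and TMM scaling. The error of a fold change is its standard error, and intervals are at 95%. The tests were tested on simulated data. The simulated counts were drawn independently for each gene, without the shared movement of the contractile genes between libraries. Reads carry no molecular identifiers, so counting precision is a lower limit to the error. No libraries of the same group were near-identical, and libraries of different groups were not compared in this way.

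The genes and lists were chosen with earlier results of these data known. All 10 genes are named in every comparison; of each other list, genes past the threshold could be named, at most 4 per list and comparison by size, and the 8 genes of most similar pattern by Pearson r. Myocd, Actc1 and further genes named for being at 0 fall outside that rule. A further gene that the rule would name is not reported here. Alternatives were DESeq2 1.42.0, RLE scaling, library totals alone, 2 other filters, a replicate block, all 19 libraries in 1 fit, the other control set, and each library left out. The other control set was used only where an exposure was compared with its control. Figures were drawn with matplotlib 3.10.9 in Python 3.11.15.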

Additional observations from a re-analysis of the deposited data

Results flagged for a closer look

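In smoke, Smtn was at 40.8 CPM in replicate 4, far from the other 3 libraries, which lay between 30.8 and 31.5 CPM. Among the 40 groups of 4 libraries checked, chance marks about 5% of groups in this way. All 10 contractile genes were above their group mean in that library.

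The smoke effect and the Nic-free effect on Smtn differed by 1.24 on the log2 scale, each against its own control (edgeR, adjusted p = 0.00411). The controls of the 2 effects differed from each other by -0.99 in the same gene, with the air set the lower.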

How the results depend on the processing

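Of 1180 alternative values of the 10 genes, 1080 kept their direction and their side of the threshold, 73 changed sign, 16 lost a call and 11 gained one; 1 of the sign changes touched a called value, Smtn in smoke with Room-air as control. Smtn kept its call in air against Room-air and in the smoke effect minus the Nic-free effect under all alternatives run. The other control set was not among the alternatives of either.

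The number of the 10 called in Nic-free against Room-air was 0 and became 1 (Smtn) with library totals alone, with DESeq2 and with all 19 libraries in 1 fit, and 0 to 1 with each library left out. In Nic against Room-air it was 0 and became 2 (Smtn and Mylk) with air as control. In Nic against Nic-free it was 1 and became 0 with no filter, and 0 to 1 with each library left out. In smoke against air it was 1 and became 0 with library totals alone, with all 19 libraries in 1 fit and with Room-air as control, and 0 to 1 with each library left out. In air against Room-air it was 1 and became 2 with DESeq2 (Smtn and Mylk), and 1 to 2 with each library left out. In the smoke effect minus the Nic-free effect it was 1, and 1 to 2 with each library left out. The cause was not tested.

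Equal replicate numbers gave no sign of pairing. Over 36 same-numbered pairs the deviations from the group means had r from -0.40 to 0.44 (mean -0.02), with 8 above 0.1. Over 108 differently numbered pairs r ran from -0.50 to 0.57 (mean 0.0067), with 34 above 0.1. With so few libraries per group such a check cannot exclude pairing. With the replicate block the number called became 1 in Nic-free against Room-air, 0 in Nic against Nic-free and 0 in smoke against air, where the share of all genes called fell to 0.0328%. With the block the log2 fold change in Nic against Room-air turned to -0.097 for Acta2, -0.081 for Tagln, -0.0061 for Smtn, -0.11 for Des and -0.13 for Lmod1, and in Nic against Nic-free to -0.029 for Tagln, -0.053 for Myh11, -0.042 for Mylk and -0.035 for Lmod1. None of these was called either way.

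With the other control set, the log2 fold change in Nic-free turned to 0.074 for Tagln, 0.14 for Myh11, -0.043 for Cnn1, 0.40 for Smtn, 0.24 for Des, 0.10 for Myl9 and 0.41 for Lmod1. In Nic it turned to 0.24 for Myh11, -0.40 for Cnn1 and 0.0092 for Tpm2, and in smoke to -0.35 for Smtn, -0.26 for Mylk and -0.14 for Lmod1.

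With each library left out, log2 values that changed sign ranged, in Nic-free against Room-air, from -0.19 to 0.10 (Tagln), -0.043 to 0.25 (Tpm2) and -0.27 to 0.049 (Lmod1). In Nic against Room-air they ranged from -0.36 to 0.27 (Acta2), -0.34 to 0.29 (Tagln), -0.46 to 0.21 (Myh11), -0.12 to 0.23 (Cnn1), -0.085 to 0.28 (Smtn), -0.17 to 0.28 (Des), -0.16 to 0.36 (Myl9), -0.42 to 0.23 (Tpm2), -0.020 to 0.39 (Mylk) and -0.53 to 0.41 (Lmod1). In Nic against Nic-free they ranged from -0.063 to 0.57 (Acta2), -0.30 to 0.32 (Tagln), -0.32 to 0.35 (Myh11), -0.52 to 0.13 (Tpm2), -0.16 to 0.25 (Mylk) and -0.41 to 0.53 (Lmod1). In air against Room-air they ranged from -0.28 to 0.076 (Tagln) and -0.23 to 0.11 (Tpm2). In the smoke effect minus the Nic effect they ranged from -0.0019 to 0.66 (Tagln) and -0.12 to 0.31 (Mylk), and in the smoke effect minus the Nic-free effect from -0.28 to 0.21 (Cnn1).

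The share of all genes called ranged over the alternatives with the same control from 0 to 17.1% in Nic against Room-air and from 0.00645 to 6.7% in smoke against air. Depth limits Cnn1 most, at 22 to 86 counts per library.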
